A study of Mus musculus with 8 samples.

Results

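The ATP-binding cassette (ABC) superfamily was followed in kidney RNA of a mouse knock-in model of MUC1 kidney disease, comparing mice given the small molecule BRD4780 with mice given vehicle. Members were taken by symbol, as genes whose name starts with Abca to Abcg followed by a number, which gave 50 of the 21759 genes in the table. Of these, 38 had 10 or more expected counts in at least 4 of the 8 libraries and are described here (the same 38 passed the low-count filter of the test): 11 of 16 in subfamily A, 8 of 10 in B, 8 of 10 in C, 4 of 4 in D, the 1 member of E, 3 of 3 in F and 3 of 6 in G. The BRD4780 group held 4 knock-in males dosed at 50 mg/kg and the vehicle (saline) group 4 knock-in males, all aged 8 months and dosed daily over 7 days. All animals carried the knock-in, so the comparison is of treatment within the model, and no wild-type kidney was analysed here. The labels name neither the allele nor the background strain. Bulk RNA came from a slice of kidney, in which fewer cells of a type and less RNA per cell cannot be told apart.

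ABC proteins bind and hydrolyse ATP through a conserved cassette, and most use it to move a substrate across a membrane. Subfamily A and part of G carry lipids, and B holds the P-glycoproteins and a group of mitochondrial and lysosomal transporters. C holds the multidrug resistance proteins and the sulfonylurea receptors, and D the peroxisomal importers of acyl-CoA and the lysosomal Abcd4. Subfamilies E and F have no membrane part and act on ribosomes. In the proximal tubule, the kidney segment that clears drugs and metabolites from blood, efflux transporters such as Abcg2, Abcc2 and Abcc4 sit in the brush border and complete secretion begun by uptake carriers on the blood side.

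Library totals ran from 5738647 to 28176628 counts with BRD4780 and from 16635528 to 28547737 counts with vehicle. Levels are in CPM, counts scaled to a common library total. BRD4780 replicate 4 was the shallowest, and a count of 0 there allows up to 0.523 CPM (3 counts over the unscaled library total, counting error only). The kidney label fitted the data: all 16 proximal tubule markers on the list passed the low-count filter. Their summed levels, for the most part from the gene Kap, were 45433 to 76757 CPM with BRD4780 and 68568 to 78362 CPM with vehicle. BRD4780 replicate 3 stood apart from the other treated libraries. It was the treated library nearest to the vehicle mean for 46% of all 13474 genes tested and for 16 of the 38 ABC genes. For this reason values without it are given beside some of the values below. The library was picked on these same values, and leaving out the treated library nearest to vehicle tends to widen differences and lower p. Values without it therefore show how much the results depend on it and are not separate support for a difference.

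The 12 members under the limit of 10 counts were Abca12, Abca14, Abca15, Abca16, Abca17, Abcb5, Abcb11, Abcc8, Abcc12, Abcg4, Abcg5 and Abcg8. Abca15, Abca16 and Abcc12 had no count in any library. Just outside the limit, Abcc8, the sulfonylurea receptor of pancreatic beta cells, and Abca14 each reached 10 counts in 2 libraries; Abcc8 had 0, 16, 3 and 2 counts with BRD4780 and 10, 7, 4 and 8 with vehicle. Just inside, Abcb4 reached it in 4 libraries, with 11, 21, 7 and 5 counts with BRD4780 and 10, 9, 3 and 15 with vehicle, and Abca6, Abcd2 and Abcg3 in 5. The bile salt exporter gene Abcb11 had 2 counts in all, both in BRD4780 replicate 2. Between 33 and 39 of the 50 members reached 10 counts in a BRD4780 library, against 35 to 38 in a vehicle library.

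Per length, in TPM (counts divided by the exon length of each gene and scaled to a common total), 3 members led the family in this kidney. Abca3, a phospholipid transporter best known from the surfactant-filled lamellar bodies of lung, had 119, 149, 219 and 150 TPM in BRD4780 replicates 1 to 4 and 200, 205, 170 and 213 TPM in vehicle replicates 1 to 4. Abcd3, the peroxisomal membrane protein PMP70, which imports branched-chain and bile acid precursor acyl-CoA, had 121, 121, 159 and 116 TPM with BRD4780 and 155, 140, 129 and 148 TPM with vehicle. Abcg2, the breast cancer resistance protein and a urate exporter, had 118, 118, 136 and 127 TPM with BRD4780 and 134, 131, 123 and 136 TPM with vehicle. In vehicle libraries Abca3 lay above both of the others without overlap, while Abcd3 and Abcg2 overlapped. With BRD4780 all 3 ranges overlapped. Together they made up 40.8%, 41.8%, 51.6% and 42.6% of the summed TPM of the family in BRD4780 replicates 1 to 4, against 46.8% to 50.9% with vehicle. The next members were the ribosome factor genes Abcf1 at 64.2 ± 4.17 TPM with BRD4780 and 57.5 ± 3.1 TPM with vehicle (SD, n = 4 per group) and Abcf2 at 55.6 ± 2.39 TPM with BRD4780 and 56.6 ± 2.19 TPM with vehicle. The mitochondrial Abcb8 followed at 53.2 ± 3.5 TPM with BRD4780 and 53.7 ± 3.96 TPM with vehicle. Levels over the 38 genes spanned 0.135 to 178 TPM, with a median of 7.93.

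**Figure D1:**
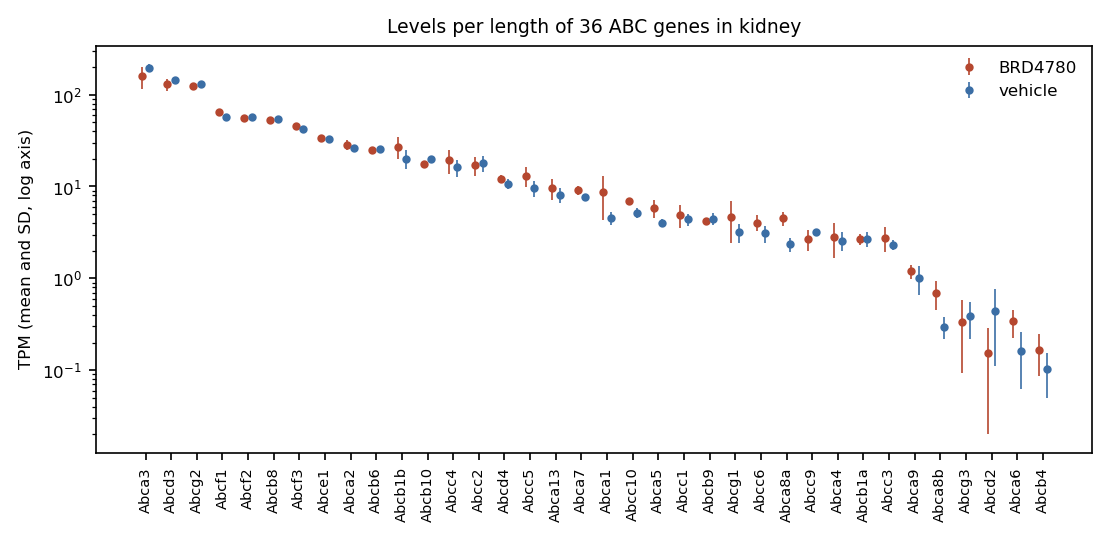
Mean TPM (log axis) of each of 36 of the 38 ABC genes, ordered by the mean over all 8 libraries, with BRD4780 in red left of vehicle in blue and SD bars (n = 4 per group; lower bars are clipped at 5% of the mean where the SD would reach 0). Abca3, Abcd3 and Abcg2 stand above 100 TPM, and Abca8b, Abcg3, Abcd2, Abca6 and Abcb4 lie under 1 TPM.

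The comparison of BRD4780 with vehicle asked which ABC genes shift in the diseased kidney during treatment. Of the 38 genes, 1 passed the threshold, Benjamini-Hochberg adjusted p below 0.05 over all genes tested in edgeR's quasi-likelihood test, and it was higher: Abca8a. This was 2.63% of the members, against 2.92% of all genes tested that passed (2.3% higher and 0.623% lower), so the family as a whole was called about as often as other genes. The 0 lower calls stand beside 1 member lower at an unadjusted p under 0.05 (2.63% of members, against 10.7% of all genes) and 1 lower by DESeq2, another count test. For increases, 5 members (13.2%) had an unadjusted p under 0.05, against 13.9% of all genes. The median log2 fold change, BRD4780 over vehicle, was 0.02 over the members and 0.01 over all genes tested, and the median size regardless of sign 0.17 and 0.18. Positive and negative fold changes were nearly balanced, at 20 and 18. By DESeq2, 4 members passed, Abca8a, Abca8b and Abca5 higher and Abcb10 lower, which was 10.5% of members against 10.1% of all genes (6.4% higher and 3.65% lower).

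**Figure D2:**
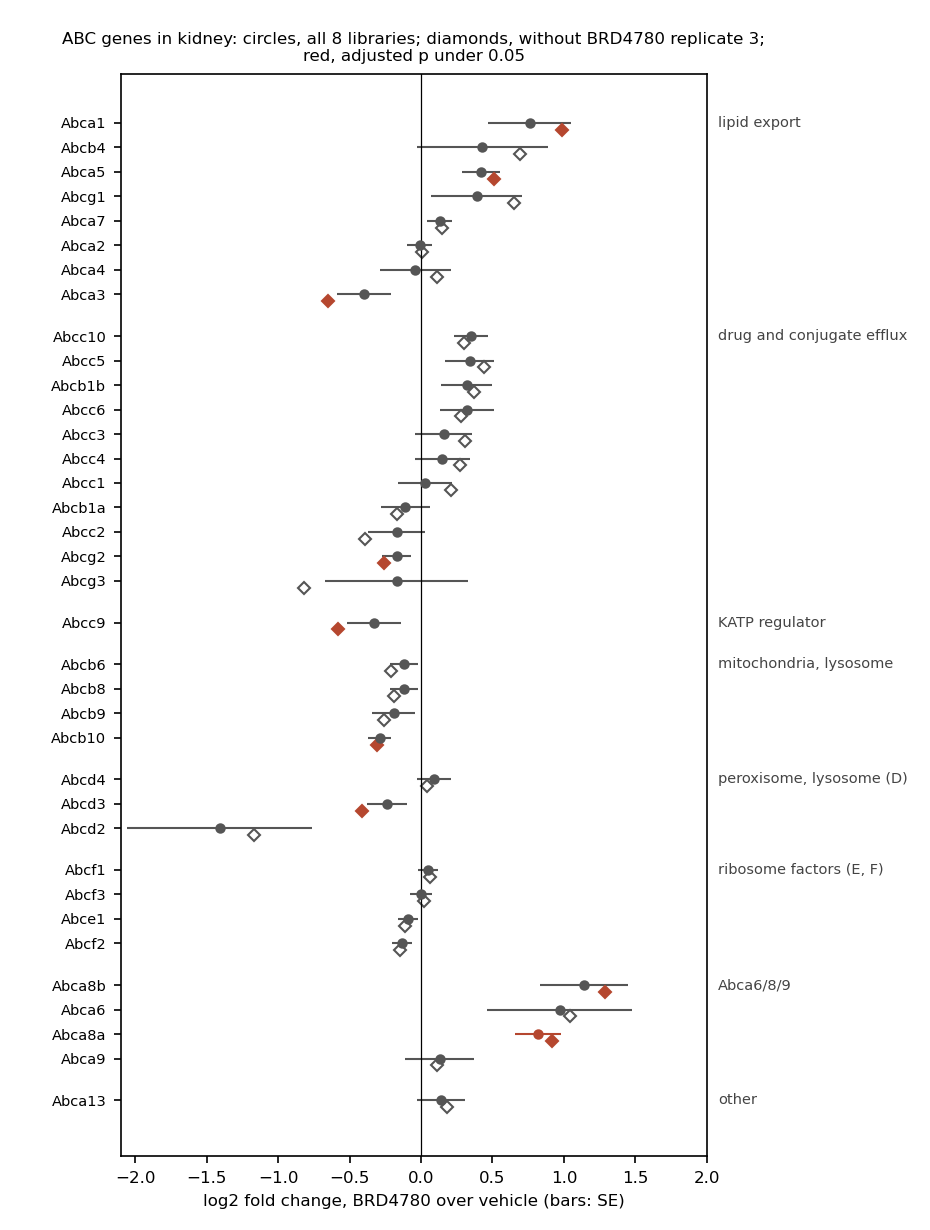
Log2 fold change (BRD4780 over vehicle) of 36 of the 38 ABC genes by role. Circles with SE bars use all 8 libraries and diamonds leave out BRD4780 replicate 3; red marks an adjusted p under 0.05. With all libraries only Abca8a is red, at 0.82; without replicate 3 a set of 9 of those drawn is.

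The Abca8a call lies in a run of 5 related genes on chromosome 11, Abca5, Abca6, Abca9, Abca8a and Abca8b, all on the minus strand within 406 kb (GRCm38, 109932190 to 110337716) and with no other protein-coding gene between them. They encode lipid-type A transporters whose substrates are little known; Abca5 resides in endosomes and lysosomes. Abca8a had 11.3, 10.6, 8.22 and 11 CPM in BRD4780 replicates 1 to 4 and 5.53, 4.82, 7.13 and 5.86 CPM in vehicle replicates 1 to 4. Every treated library lay above every vehicle library, with BRD4780 replicate 3 and vehicle replicate 3 closest to each other. It rose 1.76-fold (95% interval 1.38 to 2.26, log2 fold change 0.82 ± 0.16 SE, n = 4 per group, edgeR adjusted p = 0.0327; 0.000332 to 0.203 over the alternatives). The increase stayed between 0.74 and 0.92 on the log2 scale with any 1 library left out, but it passed the threshold only without BRD4780 replicate 3 (adjusted p = 0.00282) or vehicle replicate 3 (0.0467). Without BRD4780 replicate 1, 2 or 4 the adjusted p was 0.103, 0.0919 or 0.0889, and without vehicle replicate 1, 2 or 4 it was 0.106, 0.108 or 0.0547.

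The start regions of 3 genes are shown because they are the called gene, its adjacent copy and Abca1, the member whose sterol-responsive promoter is the best known. They run from 200 bases before to 30 bases after the RefSeq start (GRCm38.p6, all minus strand), at chr11:110095908-110096137 for Abca8a, chr11:109995816-109996045 for Abca8b and chr4:53159866-53160095 for Abca1. Capitals mark CACGTG, the E-box hexamer, and the direct repeat with 4 bases between its arms (DR4) that liver X receptors bind, searched as NGGTNA, 4 bases of any kind and NGGTCA on both strands.
Abca8a: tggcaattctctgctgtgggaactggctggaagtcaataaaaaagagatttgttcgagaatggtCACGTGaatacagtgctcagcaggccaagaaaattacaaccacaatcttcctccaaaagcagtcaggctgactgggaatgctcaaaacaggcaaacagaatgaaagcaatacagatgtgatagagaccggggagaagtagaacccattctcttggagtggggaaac
Abca8b: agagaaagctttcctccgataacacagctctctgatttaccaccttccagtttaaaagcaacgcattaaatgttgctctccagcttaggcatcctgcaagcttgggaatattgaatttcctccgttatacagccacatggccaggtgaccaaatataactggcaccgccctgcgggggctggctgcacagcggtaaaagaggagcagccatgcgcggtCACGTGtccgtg
Abca1: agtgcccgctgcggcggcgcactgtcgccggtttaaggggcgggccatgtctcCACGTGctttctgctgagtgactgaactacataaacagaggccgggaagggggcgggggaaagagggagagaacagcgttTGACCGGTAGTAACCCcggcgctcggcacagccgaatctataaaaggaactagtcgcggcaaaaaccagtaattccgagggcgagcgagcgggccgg
Abca8a held CACGTG at positions -136 to -131 counted from the start, Abca8b at 19 to 24, and Abca1 at -147 to -142. Abca1 also held the DR4 match at -67 to -52, clear of its E-box. Over windows of 250 bases before to 50 after the start, CACGTG occurred in 6 of the 45 windows of ABC genes in the promoter table, against 7.15% of all 32851 windows. The table held 38 of the 50 members chosen by symbol, of which 28 are among the described genes, and 5 of those 28 had the hexamer. The DR4 pattern occurred in 1 of the 45 and in 0.207% of all. That 1 was Abca1, whose sterol-responsive promoter was known beforehand, so this count says nothing about the family. Of the other patterns searched, TGATGNAA, which fits the composite site of ATF4, was in 1 ABC window (Abca13) and 3.97% of all, and GGGCGG, the core of the GC box, in 21 ABC windows and 35.7% of all.

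Abca8b, the adjacent copy, had 2.52, 2.25, 1.35 and 1.34 CPM with BRD4780 and 1.04, 0.552, 0.853 and 1.03 CPM with vehicle. As for Abca8a the groups did not overlap, which held on the higher side for these 2 members (5.26%, against 7.44% of all genes tested), yet the gene missed the threshold (2.2-fold, 95% interval 1.36 to 3.56, adjusted p = 0.075; 0.0151 without BRD4780 replicate 3). Abca8a and Abca8b shared 1.64% and 1.42% of their transcript stretches of 50 bases, so few reads fit both, and 241 bases of Abca8b exons overlap a gene on the opposite strand. Abca5 had 22.1, 28.4, 19.7 and 27.3 CPM with BRD4780 and 17.6, 17.0, 20.5 and 17.4 CPM with vehicle, where only BRD4780 replicate 3 lay inside the vehicle range (1.34-fold, adjusted p = 0.0917; 0.01 without that library). Abca6 was near the counting limit, at 0.455 to 0.939 CPM with BRD4780 and 0.0431 to 0.487 CPM with vehicle (log2 fold change 0.97 ± 0.51 SE, adjusted p = 0.263). Abca9, in the middle of the run, had 2.94 to 4.18 CPM with BRD4780 and 2.21 to 4.69 CPM with vehicle, with fully overlapping groups (0.13 ± 0.24, adjusted p = 0.778). All 5 fold changes were thus positive and 1 passed. None of the 7 tested coding genes within 500000 bases on either side passed; their log2 fold changes ran from -0.33 (Arsg, an arylsulfatase) to 0.23 (Fam20a), with Map2k6, the neighbour of Abca5, at -0.21.

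**Figure D3:**
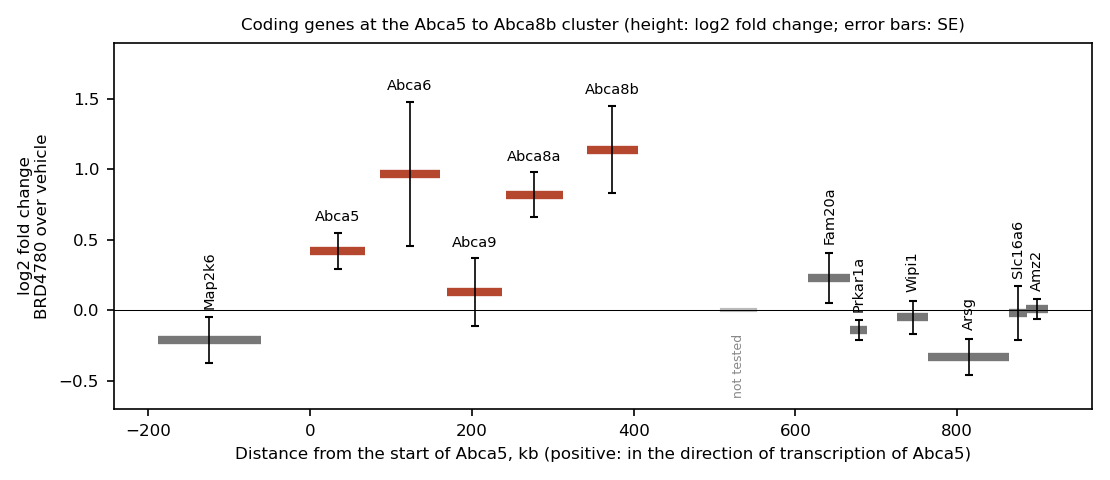
Log2 fold change (BRD4780 over vehicle, SE bars) of protein-coding genes by distance in kb from the start of Abca5; horizontal bars span each gene, with the 5 ABC genes in red. The ABC genes lie at 0.13 to 1.14 and their tested neighbours at -0.33 to 0.23.

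**Figure D4:**
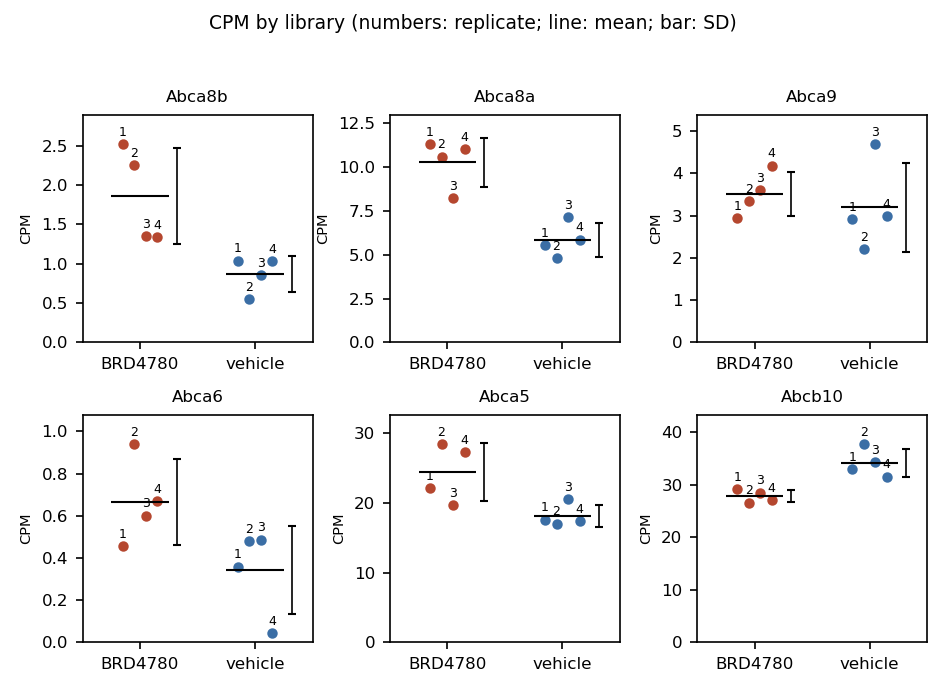
CPM in each library for the 5 genes of the chromosome 11 run and for Abcb10, BRD4780 left of vehicle, numbered by replicate, with the mean (line) and SD (bar). Abca8a and Abca8b are higher in each treated library and Abcb10 lower, without overlap.

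Beside this increase, markers of endothelium and podocytes also differed between the groups. Of 14 endothelial markers 4 were higher (28.6%, against 2.3% of all genes tested) and 0 lower, with summed levels of 516 to 667 CPM with BRD4780 and 247 to 451 CPM with vehicle. Of 11 podocyte markers 4 were higher (36.4%) and 0 lower, with summed levels of 327 to 437 CPM with BRD4780 and 151 to 253 CPM with vehicle, and no marker of either list was at 0 in all libraries. With 1 library left out in turn, the called endothelial markers Flt1, Egfl7, Eng and Robo4 passed in 3, 2, 3 and 1 of 8 fits. The called podocyte markers Nphs1, Podxl, Ptpro and Cdkn1c passed in 7, 4, 2 and 2 of 8. Of 9 thick limb and distal tubule markers 3 were lower (33.3%, against 0.623% of all genes tested) and 0 higher. These were Kcnj1, Cldn19 and Bsnd, which passed in 6, 2 and 2 of 8 fits with 1 library left out. Of the 9 fold changes 7 were negative and 2 positive (median -0.45). The positive ones were Slc12a3 at 0.19 and Calb1 at 0.84 (log2, edgeR adjusted p = 0.515 and 0.0507). Of collecting duct markers 0 of 10 passed, and of fibroblast markers 0 of 9. Among treated libraries, replicate 3 was lowest in the endothelial and podocyte sums and in Abca8a. Among vehicle libraries, replicate 4 was lowest in both sums and replicate 2 in Abca8a. The part of these cell types in the Abca8a result was not tested.

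Among 12 lipid exporters and related genes, Abca5 included, 8 were tested and none passed; 5 fold changes were positive, with a median of 0.26 against 0.01 over all genes. Abca1, whose start region held the DR4 match, loads cholesterol and phospholipid onto apolipoprotein A-I and had 24.7, 37.6, 16.2 and 51.2 CPM with BRD4780 and 19.3, 15.2, 17.8 and 22.1 CPM with vehicle. Replicates 1, 2 and 4 of the treated group lay above all vehicle libraries and replicate 3 among them (1.7-fold, 95% interval 1.09 to 2.65, adjusted p = 0.15; log2 fold change 0.99 ± 0.21 SE and adjusted p = 0.00863 without replicate 3). Abcg1, which passes sterol on to lipoprotein particles, showed the same order of treated libraries, at 10.6, 15.2, 5.45 and 17.9 CPM with BRD4780 and 7.72, 10.8, 11.2 and 6.86 CPM with vehicle. Its groups overlapped and its log2 fold change was 0.39 ± 0.32 SE (adjusted p = 0.462; 0.0554 without replicate 3). The pair had the widest spread between replicates among the described genes, 0.52 for Abca1 and 0.54 for Abcg1 (pooled SD on the log2(CPM + 1) scale), against a median of 0.215.

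Abca3 went the other way, with 408, 489, 817 and 500 CPM with BRD4780 and 740, 772, 623 and 786 CPM with vehicle. BRD4780 replicate 3 was the highest of all 8 libraries and the other 3 treated libraries were the lowest. Over all libraries the difference was -0.40 ± 0.19 (log2, SE; adjusted p = 0.223), and without replicate 3 it was -0.65 ± 0.10 (adjusted p = 0.00226). Exons of Abca3 share 914 bases with a gene on the opposite strand. Abca5, also of this list, was at 0.42 ± 0.13, Abca2 at -0.01 ± 0.09, Abca7 at 0.13 ± 0.09, the retinoid transporter Abca4 of photoreceptors at -0.04 ± 0.25 and the phosphatidylcholine transporter Abcb4 of bile at 0.43 ± 0.46 (log2 fold change, SE). Of 15 partners in sterol handling, such as lipoprotein acceptors and synthesis enzymes, 0 passed (median 0.02). The smallest p there was that of the acceptor gene Apoa1, at 3.35 ± 1.11 CPM with BRD4780 and 1.87 ± 0.633 CPM with vehicle (adjusted p = 0.146, and 0.0145 without BRD4780 replicate 3; SD, n = 4 each). Of 20 nuclear receptors and other regulators of transporter genes, 19 were tested and none passed. The bile acid receptor FXR (Nr1h4) came nearest, with 211 ± 25.4 CPM in treated and 148 ± 28.8 CPM in vehicle kidneys (adjusted p = 0.0734). With 1 library left out in turn, its adjusted p ran from 0.031 to 0.191, and 2 of 8 fits passed.

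**Figure D5:**
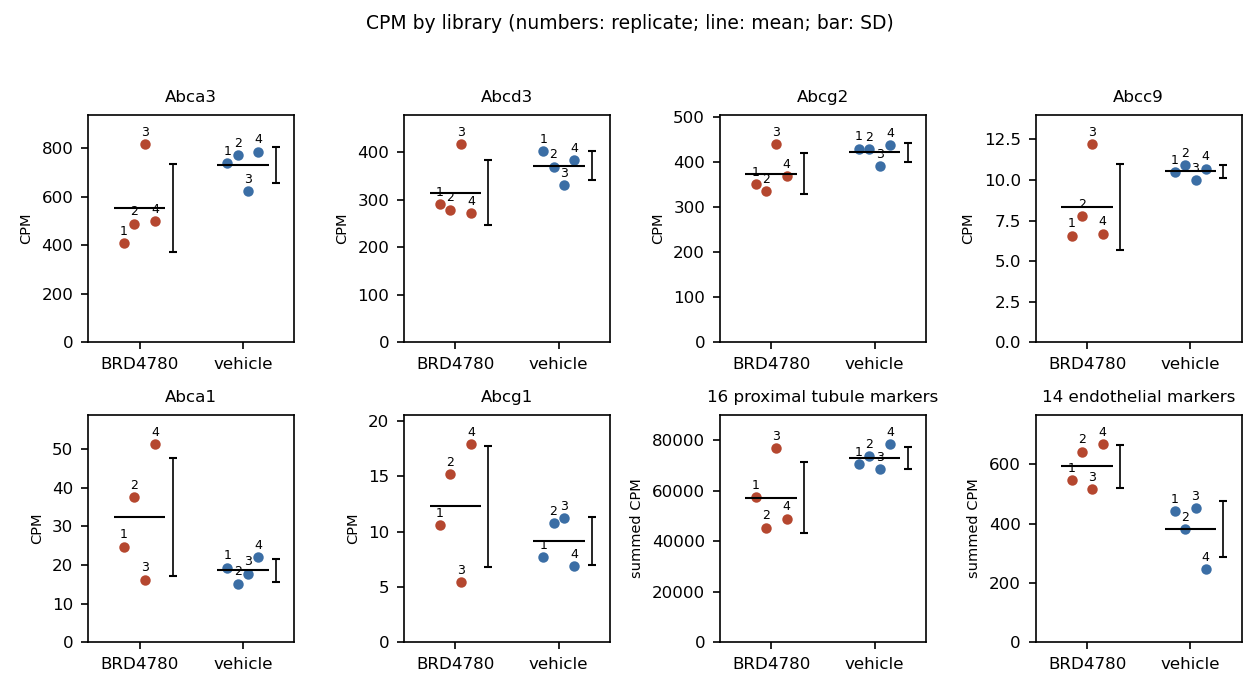
CPM in each library of 6 ABC genes and summed CPM of 2 marker lists, BRD4780 left of vehicle, numbered by replicate, with the mean (line) and SD (bar). BRD4780 replicate 3 is the highest treated library for Abca3, Abcd3, Abcg2, Abcc9 and the sum of 16 proximal tubule markers (mostly Kap). It is the lowest for Abca1, Abcg1 and the sum of 14 endothelial markers.

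Of 12 genes of drug and conjugate efflux 11 were tested, none passed, and 7 fold changes were positive (median 0.15). Abcg2 had 352, 336, 440 and 369 CPM with BRD4780 and 430, 429, 391 and 438 CPM with vehicle. Its treated libraries other than replicate 3 lay below the vehicle range (log2 fold change -0.17 ± 0.10 SE, adjusted p = 0.293; -0.26 ± 0.07 and adjusted p = 0.0229 without replicate 3). Abcc2, the brush-border anion pump MRP2, had 42.2, 44.2, 75.5 and 52.5 CPM with BRD4780 and 66.9, 46.9, 54.0 and 73.3 CPM with vehicle, again highest in treated replicate 3 (-0.17 ± 0.20, adjusted p = 0.621; -0.39 ± 0.15 and 0.0822 without it). Abcc4, its companion MRP4, which also exports cyclic nucleotides and urate, had 41.3, 61.7, 34.7 and 42.5 CPM with BRD4780 and 48.0, 34.2, 47.4 and 32.9 CPM with vehicle. These groups overlapped, with treated replicate 2 above all vehicle libraries (0.15 ± 0.19, adjusted p = 0.641).

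Mice have a pair of P-glycoprotein genes, and in this kidney Abcb1b was the main form, with 27.1 ± 7.35 TPM with BRD4780 and 20.1 ± 4.61 TPM with vehicle, while Abcb1a had 2.65 ± 0.362 TPM with BRD4780 and 2.69 ± 0.472 TPM with vehicle (SD, n = 4 per group). Abcb1b had 69.9, 107, 70.2 and 68.9 CPM with BRD4780 and 81.9, 49.4, 55.7 and 67.3 CPM with vehicle, with treated replicate 2 the highest and the other treated libraries inside the vehicle range (0.32 ± 0.18, adjusted p = 0.304; 0.13 without replicate 2). Abcb1a was at -0.11 ± 0.17 (adjusted p = 0.728). The copies share 17.6% of the transcript stretches of 50 bases of Abcb1a and 11.6% of those of Abcb1b with other genes, chiefly each other, so their split is less certain than other values here.

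Abcc10 (MRP7) had 17.8, 18.0, 19.5 and 15.1 CPM with BRD4780 and 14.1, 11.6, 14.7 and 15.4 CPM with vehicle. Treated replicate 4 lay just inside the vehicle range (1.27-fold, 95% interval 1.06 to 1.53, adjusted p = 0.114). Abcc5, which exports cyclic nucleotides and other organic anions, had 60.3, 61.6, 41.6 and 40.2 CPM with BRD4780 and 38.5, 31.7, 50.5 and 41.2 CPM with vehicle (1.27-fold, adjusted p = 0.245; 0.0856 without BRD4780 replicate 3). The 95% intervals of Abcc1, Abcc3, Abcc4 and Abcc6 all included no change, with bounds between 0.762-fold and 1.67-fold. Abcg3, a rodent relative of Abcg2, was scarce and poorly bounded, at 0.411-fold to 1.93-fold. In the list of 16 organic ion uptake and exchange carriers, 1 was higher (6.25%, against 2.3% of all genes tested) and 0 lower with a median of -0.22. This was Slco1a4, an organic anion carrier, at 5.88, 13, 1.69 and 17.1 CPM with BRD4780 and 0.826 to 1.58 CPM with vehicle (7.57-fold, adjusted p = 0.0366), with replicate 3 again closest to the vehicle libraries. Of 21 conjugation enzymes, which make many ABCC substrates, 18 were tested, 2 were higher (11.1%) and 0 lower (median -0.18). The sulfotransferase gene Sult1a1 had 29.3 ± 7.14 CPM with BRD4780 and 13 ± 2.56 CPM with vehicle (2.23-fold, adjusted p = 0.02; SD, n = 4 each). The glucuronosyltransferase gene Ugt2b5 had 17.3 ± 6.64 CPM with BRD4780 and 5.32 ± 1.72 CPM with vehicle (3.24-fold, adjusted p = 0.0288). With 1 library left out in turn, Slco1a4 passed in 1 of 8 fits (without BRD4780 replicate 3), and Sult1a1 and Ugt2b5 in 3 of 8 each (without BRD4780 replicate 3, vehicle replicate 3 or vehicle replicate 4).

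All 5 genes of the mitochondrial and lysosomal B group had negative fold changes, and none passed (median -0.19). Abcb10, an inner membrane transporter needed for heme synthesis in red cell precursors, had 29.1, 26.6, 28.5 and 27.1 CPM with BRD4780 and 33.0, 37.7, 34.3 and 31.5 CPM with vehicle. Each treated library lay below each vehicle library, the only member for which this held (2.63% of members, against 5.16% of all genes tested). The difference was small, 0.817 of the vehicle level (95% interval 0.721 to 0.925, adjusted p = 0.0764; 0.0319 without replicate 3 and 0.0277 by DESeq2), and its exons overlap in part those of a gene on the opposite strand.

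Of the others in this group, Abcb8 was at -0.12 ± 0.10 (log2 fold change, SE), Abcb6, a porphyrin transporter, at -0.12 ± 0.10 and Abcb9, a lysosomal peptide transporter, at -0.19 ± 0.15. An annotated gene on the same strand shares 2932 exon bases with Abcb6, so strand cannot separate their reads. Of 18 genes of heme and iron-sulfur synthesis 0 passed and 14 fold changes were negative (median -0.16). The smallest p was that of the cysteine desulfurase Nfs1, at 106 ± 28.8 CPM with BRD4780 and 153 ± 6.26 CPM with vehicle (adjusted p = 0.0842, and 0.000242 without BRD4780 replicate 3; SD, n = 4 each). The lowest fold change was that of Alas2, the heme synthesis enzyme of red cell precursors, which is also on the red cell marker list (0.278-fold, adjusted p = 0.0958; 0.014 without that library). Red cell markers, of which 4 were tested with 0 passing and none at 0 throughout, summed to 180 to 803 CPM with BRD4780 and 519 to 1612 CPM with vehicle; their part in the Abcb10 values was not tested.

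In subfamily D none of 4 genes passed. Abcd3 had 291, 279, 417 and 272 CPM with BRD4780 and 402, 370, 331 and 384 CPM with vehicle. As for Abca3, replicate 3 was the highest and the other treated libraries the lowest of all 8 (-0.24 ± 0.14, adjusted p = 0.303; -0.41 ± 0.08 and adjusted p = 0.00582 without replicate 3). Abcd2, a peroxisomal importer of fatty acyl-CoA best known from fat and brain, was scarce, with 0.455, 0.637, 0.225 and 0 CPM with BRD4780 and 0.287, 2.1, 0.609 and 1.16 CPM with vehicle (-1.41 ± 0.65, adjusted p = 0.214). Adipocyte markers, 0 of 6 tested passing and none at 0 throughout, summed to 56.7 to 179 CPM with BRD4780 and 85.6 to 253 CPM with vehicle. The sum, most of it Fabp4, was highest in vehicle replicate 2, the library with the most Abcd2. Of the 6 fold changes 5 were negative and 1 positive (median -1.77). The part of these markers in the Abcd2 values was not tested. Abcd4, which releases cobalamin from lysosomes, was at 35.9 ± 5.02 CPM with BRD4780 and 33.7 ± 4.02 CPM with vehicle (adjusted p = 0.668; SD, n = 4 each). Of 22 peroxisome genes 0 passed and 18 fold changes were negative (median -0.14); the smallest p was that of the racemase Amacr, at 216 ± 79.5 CPM with BRD4780 and 346 ± 31.9 CPM with vehicle (adjusted p = 0.0932; 0.000787 without BRD4780 replicate 3). In the cobalamin list 0 of 10 passed (median -0.02), with the smallest p for Mmachc (-0.38 ± 0.15, adjusted p = 0.153; 0.00432 without BRD4780 replicate 3).

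Abcc9, the SUR2 subunit of ATP-sensitive potassium channels in smooth muscle and pericytes, had 6.58, 7.78, 12.2 and 6.69 CPM with BRD4780 and 10.5, 10.9, 10.0 and 10.7 CPM with vehicle. Treated replicate 3 was the highest of all libraries and the other treated libraries the lowest (-0.33 ± 0.19, adjusted p = 0.31; -0.58 ± 0.13 and adjusted p = 0.00937 without replicate 3). The vascular pore subunit gene Kcnj8, its usual partner, was at 7.07 ± 0.771 CPM with BRD4780 and 6.83 ± 0.504 CPM with vehicle (adjusted p = 0.908), and Kcnj11, the other pore subunit, at 0.611 ± 0.103 CPM with BRD4780 and 0.804 ± 0.198 CPM with vehicle (adjusted p = 0.396; SD, n = 4 each). Of 11 mural and smooth muscle markers 0 passed and none was at 0 throughout. They summed to 125 to 161 CPM with BRD4780 and 139 to 165 CPM with vehicle. Of their fold changes 8 were positive and 3 negative (median 0.06). Treated replicate 3, highest in Abcc9, was lowest in that sum, but single markers differed. Among treated libraries, Cspg4 was highest in replicate 3 (23.6 CPM) and Ren1 lowest there (10.9 CPM). The part of these markers in the Abcc9 values was not tested.

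The ribosome factors had the smallest spread between replicates of the 38 genes. Abce1, which splits ribosomes after termination, had 69.5, 74.4, 76.9 and 76.8 CPM with BRD4780 and 78.9, 74.0, 80.6 and 82.5 CPM with vehicle. Abcf1, Abcf2 and Abcf3, cytosolic proteins linked to translation, had log2 fold changes of 0.05 ± 0.07, -0.13 ± 0.07 and -0.00 ± 0.08 (SE), against -0.09 ± 0.07 for Abce1. Intervals of these 4 ran from 0.82-fold at the lowest bound to 1.16-fold at the highest, and their replicate spread was 0.07 or 0.08 on the log2(CPM + 1) scale. Among 15 genes of ribosome rescue and the GCN pathway, 14 were tested, none passed and 12 fold changes were positive (median 0.12); Eif2ak4, the kinase GCN2, had the smallest p (1.3-fold, adjusted p = 0.0662; 0.00728 without BRD4780 replicate 3). Abca13, a very large A transporter, had 74.3, 51.8, 62.8 and 90.9 CPM with BRD4780 and 73.5, 53.4, 53.2 and 72.2 CPM with vehicle (0.14 ± 0.17, adjusted p = 0.662).

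Of ABC genes that carry other symbols and so fall outside the rule, Tap1 had 8.57, 7.58, 12.8 and 8.53 CPM with BRD4780 and 8.54, 7.29, 7.49 and 8.58 CPM with vehicle (adjusted p = 0.414). Its partner Tap2, with which it feeds peptides to MHC class I, had 24.8, 25.7, 31 and 26.6 CPM with BRD4780 and 25.9, 28.7, 26.2 and 26.7 CPM with vehicle (adjusted p = 0.967). The chloride channel gene Cftr was at 2.98 ± 0.652 CPM with BRD4780 and 2.35 ± 0.557 CPM with vehicle (adjusted p = 0.447; SD, n = 4 each). Of 11 peptide loading genes 0 passed (median 0.10), with the smallest p for calreticulin (Calr, -0.45 ± 0.11, adjusted p = 0.0589; 0.0161 without BRD4780 replicate 3).

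Without BRD4780 replicate 3, the family gave 10 calls, with Abca1, Abca5, Abca8a and Abca8b higher and, among 6 lower, Abca3, Abcb10, Abcc9, Abcd3 and Abcg2. That was 26.3% of the 38 members, beside 23.5% of all genes (12.1% higher and 11.3% lower), so calls became more numerous in the family and over all genes alike. Replicate 3 was picked for lying near the vehicle libraries in these same data, so these calls are not separate support. The 3 genes with the highest TPM of the family were among the 6 lower calls. The 16 proximal tubule markers, 0 of which passed over all 8 libraries and none of which was at 0, had a summed level of 45433 to 57553 CPM in BRD4780 replicates 1, 2 and 4, 76757 CPM in replicate 3 and 68568 to 78362 CPM with vehicle. Most of this sum was the gene Kap, at 35905, 25883, 44577 and 29500 CPM with BRD4780 and 41928 to 49818 CPM with vehicle. Over all 8 libraries 13 of the 16 fold changes were negative and 3 positive (median -0.24). Leukocyte markers, 0 of 12 tested passing, summed to 546 to 637 CPM in BRD4780 replicates 1, 2 and 4, 810 CPM in replicate 3 and 750 to 811 CPM with vehicle. Most of this sum was Cd74, at 430, 438, 629 and 495 CPM with BRD4780 and 598, 654, 613 and 533 CPM with vehicle. The general leukocyte marker Ptprc was at -0.02 ± 0.35 (log2 fold change, SE). Of the 12 fold changes 10 were negative and 2 positive (median -0.24). The part of either marker list in the lower calls was not tested.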

How the data were processed

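Kidney RNA was sequenced from 4 BRD4780 and 4 vehicle mice with a stranded oligo-dT protocol, per the labels' protocols. The authors deposited expected counts per gene, estimated read counts that were not normalized; per the submitters' processing notes, STAR 2.5.2b, RSEM 1.3.0 and Picard were used and builds mm10 and hg19 are named, with no role given. For the annotation, filters and strand setting behind the counts, the sources used here give nothing. RSEM divides reads that fit several genes by likelihood. Of the deposited counts of a library, 15.1% to 28.9% were not whole numbers.

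The 22121 entries held 343 symbols on more than 1 line with identical values, collapsed to 21759 genes. The table has 1 column of per-sample values that matches no sample analysed, which was not used. Counts were rounded, filtered with filterByExpr (minimum count 10), normalized by TMM and tested with edgeR 4.0.16 under R 4.3.3 (glmQLFit and glmQLFTest, no covariate, two-sided), with Benjamini-Hochberg adjustment over 13474 genes and a threshold of 0.05. All adjusted p-values are from this test unless DESeq2 1.42.0 is named. Standard errors were taken as the size of the log2 fold change divided by the root of F, and 95% intervals use the test's t distribution. CPM use TMM-scaled totals, except the limit given for a count of 0, which uses the unscaled total. TPM divide counts by the union of exons in GENCODE M21 (GRCm38), which held 21592 of 21759 identifiers and all 50 members; this length is not the effective length RSEM used. Exon overlaps and stretches of 50 shared bases are also from GENCODE M21, and promoters from RefSeq (GRCm38.p6). The test was tried on simulated counts.

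Groups follow the treatment label, and replicate numbers only name libraries, in order of deposition. Some title numbers occur in both groups, with no meaning given, and were used only in an alternative fit. The titles of treated samples name the treatment AGN50. The design text gives 4 mice per arm. Members and gene lists were chosen with earlier results of these data known. Named with values were the called member, the 12 others of smallest p, the 12 of highest level per length, the highest and lowest fold change in each role group, and, of each companion list, called genes or else the gene of smallest p; other members were named after their values were seen. Of the 38 described members 2 enter the counts but are not reported here by name. Alternatives were other scalings, other filters, DESeq2, libraries thinned to the smallest total, each library left out and, added after seeing the data, the title number as a block.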

Additional observations from a re-analysis of the deposited data

Results flagged for a closer look

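In each group of 4 libraries, the CPM of a gene was marked where its highest or lowest library was separated from the other 3 by a gap beyond Dixon's 95% limit, as a share of the whole range. This held in 6 of 76 groups, and chance alone marks about 1 group in 20. Abcb1b had 107 CPM in BRD4780 replicate 2, against 68.9 to 70.2 CPM in the other treated libraries. Abcc1, a glutathione conjugate exporter, had 16.9 CPM in BRD4780 replicate 3, against 29.2 to 31.7 CPM, and among vehicle libraries 20.5 CPM in replicate 4, against 27.5 to 28.8 CPM. Abcc6 had 5.86 CPM in BRD4780 replicate 4, the shallowest library, against 9.29 to 9.44 CPM. Abcd3 had 417 CPM in BRD4780 replicate 3, against 272 to 291 CPM. Abcd4 had 39.7 CPM in vehicle replicate 4, against 31.1 to 32 CPM.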

How the results depend on the processing

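With another scaling (RLE or upper quartile) or another low-count filter, the family had 1 call higher, Abca8a, and 0 lower. After thinning every library once to the smallest total, the count higher was 0 and Abca8a stood at 0.53 (log2, adjusted p = 0.203), with 33 members tested. DESeq2 gave 3 members higher and 1 lower, and 863 genes higher and 492 lower over all genes, against 310 and 84 by edgeR. With each library left out in turn, members higher ranged from 0 to 4 and lower from 0 to 6, Abca8a from 0.74 to 0.92, the members' median log2 fold change from -0.01 to 0.05, and genes higher over the whole table from 26 (without vehicle replicate 2) to 1647 (without BRD4780 replicate 3) and lower from 5 to 1537, in the same 2 cases. Each of the 8 libraries moved the count of genes higher by over 1.5 times; the cause was not tested. Of 25 named genes, 20 kept the sign of their fold change under all alternatives that tested them; Abca2, Abca9, Abca13, Abcd4 and Abcf3, none of them called, did not. Replicate numbers only name libraries, but a number in the sample titles, of unstated meaning, occurs in both groups for 2 pairs (BRD4780 replicate 1 with vehicle replicate 2, and 2 with 4). Their deviations from the group means correlated at -0.09 and -0.34, but 2 pairs are too few to decide whether these samples are related. As its meaning is unstated, the number was not taken as pairing. With it as a replicate block, chosen after seeing the data and leaving 1 residual degree of freedom, 57 genes were higher and 90 lower, 0 members higher and 1 lower (Abca3), and Abca8a stood at 1.04 (adjusted p = 0.109). The fold changes of that fit rest on the 2 pairs. The libraries outside them, BRD4780 replicate 3 included, add nothing to those fold changes. Abca6, Abca8b, Abcb4, Abcd2 and Abcg3, with under 1 TPM, are limited by depth, most of all in BRD4780 replicate 4, where Abca8b had 8 counts.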
